A study of Ambystoma mexicanum with 8 samples.

Results

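The 9 genes described here encode secreted proteins of the extracellular matrix: COL1A1, COL1A2 and COL3A1 (fibrillar collagen chains), LUM, DCN and PRELP (small leucine-rich proteoglycans), COL6A2 (a chain of beaded-filament collagen VI), POSTN (periostin, a matricellular protein) and FBN1 (fibrillin 1, a glycoprotein of microfibrils). They were taken by symbol from the deposited gene table, where they match 11 of 61014 gene models, since FBN1 names 3 models and every other symbol 1. The symbols were chosen by their summed counts over all cells, which differed between the groups below for some of them, so the values of that contrast are a description of these samples and carry no test.

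The samples were single cells of axolotl (Ambystoma mexicanum) limb tissue, wild-type by genotype, stained with Hoechst, calcein AM and propidium iodide, sorted alive with 2C DNA content and made into 10x 3′ libraries. The intact group held limbs at homeostasis and the contra group limbs that the series text calls systemically activated, taken 14 days after an amputation. Cells were in hand for 3 intact samples (numbers 1, 2 and 4) and 4 contra samples (numbers 1, 2, 4 and 5), and the intact sample with number 5 was not analysed here. The extraction protocol calls the sorted 2C cells non-dividing and the series text calls them dividing. Neither the age of the animals nor whether each sample came from a separate animal is in the labels, so the spread between samples may be technical.

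Fibroblasts of connective tissue are the main makers of interstitial matrix in vertebrate limbs. Collagen I chains, the alpha 1 and alpha 2 products of COL1A1 and COL1A2, assemble into fibrils that collagen III, lumican and decorin border or bind. Periostin is known for its place in tissue under strain or repair, and fibrillin 1 for the scaffold of elastic fibres.

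Per sample, 4332 to 5683 cells were kept after doublet calls were removed, with 96617257 to 131485269 UMIs (unique molecular identifiers, 1 per captured transcript) in all. Haemoglobin gene models took 25.01% to 54.6% of a sample's UMIs. Of 34895 distinct cell barcodes, 118 occurred in 2 or more samples. Cells were clustered without the member genes, and 1 of 29 clusters, of 141 cells, raised 12 of 12 fibroblast markers (PRRX1, PDGFRA, TWIST1, DPT, FBLN1, COL5A1, COL5A2, COL6A1, COL6A3, SPARC, MMP2 and FSTL1) and is called fibroblast-like. The same cluster raised 10 of 12 measured epidermal markers. The summed epidermal markers in its cells ran from 377 to 4734 UMIs per 1000000 UMIs (CPM) in the intact and from 5067 to 15638 CPM in the contra samples, which did not overlap. The summed fibroblast markers of the cluster ran from 2798 CPM (sample 4) to 9118 CPM in the intact and from 4982 to 8204 CPM in the contra samples. In intact sample 4 and in contra samples 2, 4 and 5 they lay below the summed epidermal markers. Haemoglobin took 13.8% to 55.5% of the cluster's UMIs in the intact and 28.7% to 55.2% in the contra samples. The part of epidermal markers and haemoglobin in the results below was not tested. Of the other cell types, T cell markers reached 775 CPM and macrophage markers 725 CPM, both in intact sample 2, and cartilage markers 157 CPM in contra sample 2. Endothelial markers ran from 13.6 to 26.2 CPM in the intact and from 20.4 to 212 CPM in the contra samples. Tendon markers stayed at or below 7.86 CPM and muscle markers at or below 39.7 CPM in every sample.

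The 9 genes differed by degrees in how much of their UMIs fibroblast-like cells held. The shares were largest for COL3A1, LUM, PRELP, COL6A2 and FBN1. Fibroblast-like cells were 0.408% of kept cells and 0.385% of UMIs. Fibroblast-like cells held 86.6% of the COL3A1 UMIs (95% exact binomial interval 85.8 to 87.4), 84.8% of PRELP, 75.6% of LUM, 73.5% of COL6A2 and 71.9% of FBN1. For the other 4 genes the share was smaller: 65.1% of POSTN (63.4 to 66.8), 49.4% of DCN, 42.7% of COL1A1 and 28.5% of COL1A2. These intervals, and those below, cover counting error only. The shares differed widely between samples and were lowest in intact sample 4 for each of the 9 genes. POSTN ran from 30.2% there to 86.2% in intact sample 1, COL1A1 from 21.0% to 71.3% and COL1A2 from 11.1% to 57.9%. DCN ran from 30.4% to 69.8%, COL6A2 from 42.7% to 83.8%, LUM from 55.7% to 84.1% and FBN1 from 58.0% to 79.8%. COL3A1 ran from 67.8% to 93.3% and PRELP from 69.3% to 89.9%. Most of what remained of COL1A1, COL1A2 and DCN lay in epidermal-like cells, cluster 25 described next included, which held 51.1%, 66.7% and 41.8% of their UMIs. For POSTN epidermal-like cells held 18.2% and all other cells 16.7%.

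**Figure D1:**
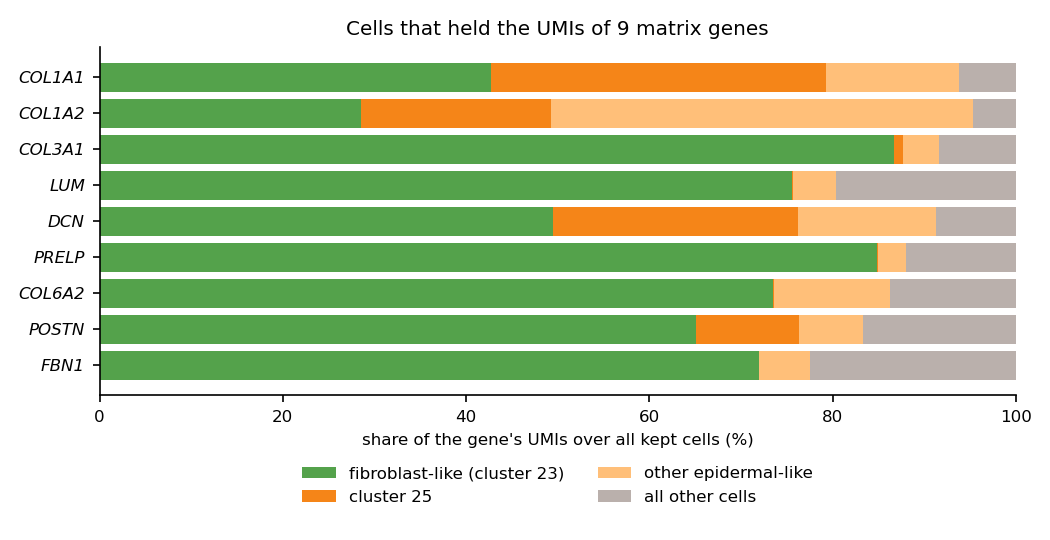
Share of each gene's UMIs over all kept cells (%, horizontal axis) held by fibroblast-like cells, by cluster 25, by the other epidermal-like clusters and by all other cells, for the most abundant gene model of each symbol. The green part reaches 86.6% for COL3A1 and 28.5% for COL1A2, and the orange part is wide for COL1A1 (36.6%), DCN (26.7%), COL1A2 (20.8%) and POSTN (11.2%).

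A single epidermal-like cluster carried much of that remainder. Cluster 25, of 109 cells, raised 11 of 12 epidermal markers and 5 of 12 fibroblast markers, and it was set apart from the other epidermal-like cells after its values were seen. KRT15 and KRT6A, keratins of squamous epithelia, were among its leading genes together with COL1A1, COL1A2 and SPARC, a collagen-binding glycoprotein. Its summed KRT5 model with the most UMIs stood at 12481 CPM, against 3476 CPM in fibroblast-like and 19749.5 CPM in the other epidermal-like cells. TP63, the transcription factor of basal epidermal cells, stood at 117 CPM there and at 11.6 CPM in fibroblast-like cells. PRRX1, TWIST1 and FBLN1 had 0 UMIs in cluster 25, PDGFRA 2, DPT 3, COL6A1 1 and COL6A3 2, while COL5A1, COL5A2 and SPARC reached 355, 197 and 2157 CPM. FSTL1 stood at 79.4 CPM in cluster 25, against 559 CPM in fibroblast-like and 14.9 CPM in the other epidermal-like cells. The 2 MMP2 models stood at 19.5 and 18.5 CPM in cluster 25. They had 127 and 1.03 CPM in fibroblast-like and 10.7 and 4.21 CPM in the other epidermal-like cells.

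COL1A1, whose product is the alpha 1 chain of collagen I, stood at 5559.5 CPM (95% exact Poisson interval 5474 to 5646) in fibroblast-like cells and at 6953 CPM (6838 to 7069) in cluster 25. Over samples these levels overlapped, from 2070 to 8060 CPM and from 3220 to 10055 CPM. Haemoglobin took 13.8% to 55.5% of the fibroblast-like UMIs, and 35 of those cells averaged 2.54 COL1A1 UMIs. The part of both in the order of the 2 levels was not tested. COL1A1 was at 33.4 CPM in the other epidermal-like cells, where 309 cells held at least 5 UMIs, and at 2.55 CPM in erythroid-like cells, which serve here as the background from free RNA. COL1A2, the partner chain, was at 5425 CPM in fibroblast-like cells and 5766 CPM in cluster 25. It was higher than COL1A1 in the other epidermal-like clusters, at 155 CPM, with a UMI in 60.1% of 7239 cells and against 2.69 CPM in erythroid-like cells. Those clusters held 45.98% of all COL1A2 UMIs and 464 COL1A2 UMIs for every 100 of COL1A1, where fibroblast-like cells held 97.6 and erythroid-like cells 105. COL3A1, the chain of collagen III, differed from both: 2117 CPM in fibroblast-like cells, 36.0 CPM in cluster 25 (28.2 to 45.3) and 1.70 CPM in the other epidermal-like cells.

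The proteoglycans split in the same way. DCN, whose product decorin binds collagen fibrils, was at 719 CPM in fibroblast-like cells and at 568 CPM in cluster 25 (536 to 602), with 0.389 CPM in erythroid-like cells. LUM, whose product lumican also binds fibrils, was at 1140.4 CPM in fibroblast-like cells but had 2 UMIs in cluster 25, or 0.999 CPM (0.121 to 3.61). In the RefSeq gene table for the axolotl assembly UKY_AmexF1_1 LUM and DCN lie next to each other, after KERA. PRELP, a proteoglycan found in basement membranes and cartilage of mammals, was at 238 CPM in fibroblast-like cells with 1 UMI in cluster 25.

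COL6A2 stood at 627 CPM in fibroblast-like cells and had 2 UMIs in cluster 25, as COL6A1, its neighbour in the RefSeq table, had 1. POSTN was at 678 CPM (649 to 709) in fibroblast-like cells and at 170 CPM (153 to 189) in cluster 25, where 55 of 109 cells held a UMI. FBN1, by its most abundant model AMEX60DD301003755.3, was at 978 CPM in fibroblast-like cells and had 3 UMIs in cluster 25. The other FBN1 models held 132 and 10 UMIs in all, and the first of these had 3 of its UMIs in fibroblast-like cells.

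**Figure D2:**
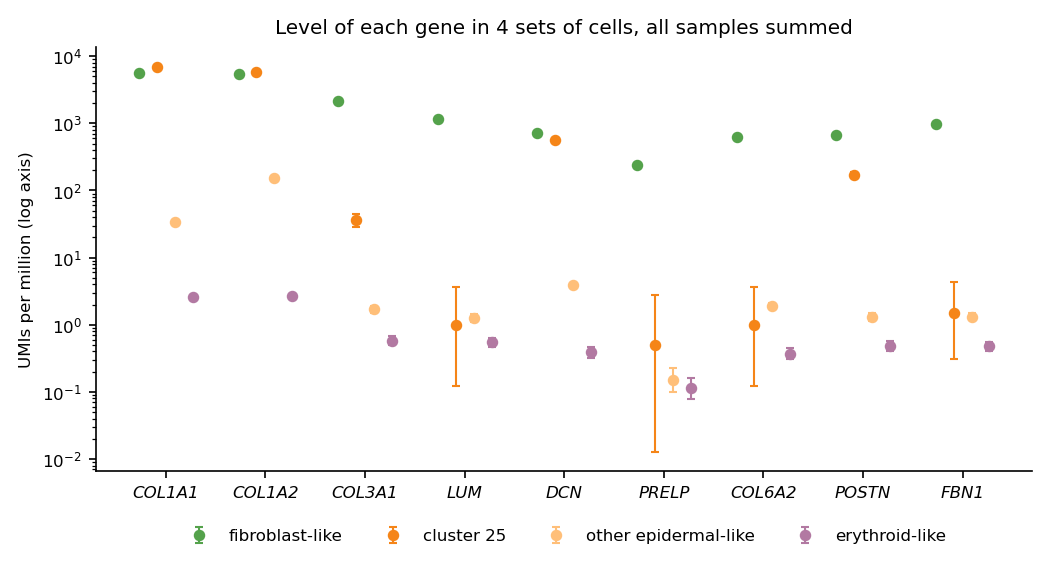
Level of each gene (CPM, log axis) in 4 sets of cells with the UMIs of the 7 samples summed. Points are the summed level and bars the 95% exact Poisson interval, to be compared within a gene. COL1A1, COL1A2 and DCN stood near each other in fibroblast-like cells and cluster 25, while LUM, PRELP, COL6A2 and FBN1 in cluster 25 stood at the level of the other epidermal-like cells.

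Single cells showed the same split. Among cells with a COL1A1 UMI, 105 of 107 in cluster 25 held none of LUM and 85 of 107 none of COL3A1, whereas in fibroblast-like cells 12 of 128 held none of LUM and 15 of 128 none of COL3A1. DCN was found with COL1A1 in 101 of those 107 cells of cluster 25 and in 110 of 128 fibroblast-like cells. All 9 genes were found together in 78 of 141 fibroblast-like cells and in 0 of 109 cells of cluster 25, where the median cell held 4. The 29 clusters were made from the same cells, so these differences between clusters are a description with no test.

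Shares of cells were set against the erythroid-like background. A POSTN UMI was found in 72.3% of fibroblast-like cells (median depth 18345 UMIs per cell), 50.5% of cluster 25 (17960.0 UMIs), 2.49% of the other epidermal-like cells and 1.53% of erythroid-like cells, whose median depth was 31492.5 UMIs. With each cell thinned to 3000 UMIs, which left out no cell, the shares were 52.5%, 22.9%, 0.470% and 0.168%. Thinned shares of COL1A2 were 75.9%, 97.2%, 29.2% and 1.03% in the same order. For POSTN the thinned share was 0.484% in T-cell-like and 0.207% in B-cell-like cells. The POSTN share of the other epidermal-like cells was thus above the erythroid-like one but not above that of T-cell-like cells. LUM, COL6A2, PRELP and FBN1 had no UMI in cluster 25 after thinning.

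Outside these sets the levels were low. LUM was at 78.5 CPM in cluster 26, an unnamed cluster of 99 cells led by JCHAIN and IGHM, which encode immunoglobulin chains of plasma cells, and 57 of them held a LUM UMI. It was at 35.4 CPM in cluster 24, unnamed and of 111 cells, and at 10.3 CPM in B-cell-like cells, against 0.548 CPM in erythroid-like cells. FBN1 was at 11.4 CPM in cluster 12, unnamed and led by GZMA, a granule protease of cytotoxic lymphocytes. POSTN reached 5.22 CPM in cluster 14, also led by GZMA, but 76 of its 90 UMIs there came from 1 cell.

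The fibroblast-like cells were not alike. Of the 141 cells, 106 held at least 6 of the 12 fibroblast markers and 35 held fewer, a split added after the data were seen. The markers include matrix genes such as COL5A1, COL6A1 and DPT, so a split by them is not independent of the members. The 106 cells averaged 18.6 POSTN, 152 COL1A1, 58.0 COL3A1 and 31.3 LUM UMIs per cell. The 35 others averaged 0.371 POSTN, 2.54 COL1A1, 1.11 COL3A1 and 0.486 LUM UMIs per cell, at a median depth of 20523 UMIs against 18096.5 in the 106. The 10 cells with the most FBN1 held 45.2% of the FBN1 UMIs of the cluster, and for the other members this share lay between 26.5% and 35.4%.

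Among gene models outside the 9, the pattern over the 29 clusters most like that of POSTN was that of COL5A1 (Pearson r = 0.992), a chain of collagen V. THBS2, a matricellular thrombospondin, followed with r = 0.988, and then COL12A1, a fibril-associated collagen, with 0.987. CAV1, the coat protein of caveolae, and PTPRD, a receptor phosphatase, both had 0.971. The correlation was of log2(CPM + 10) over clusters that share samples and depth, among 13587 models with a symbol and at least 500 UMIs, and it is given as a description. POSTN stood at 678 CPM in the fibroblast-like cluster and at 170 CPM in cluster 25. Each other named class, and the unnamed clusters summed, had 1.30 CPM or less. The correlations therefore rest mainly on the fibroblast-like cluster and cluster 25. Among the members DCN stood nearest to POSTN (0.979) and LUM farthest (0.693).

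Over all cells of each sample, all 9 genes had a higher mean in the contra than in the intact limbs. In such sums, more cells of a type and more RNA per cell cannot be told apart. POSTN stood at 2.06, 2.56 and 2.52 CPM in intact samples 1, 2 and 4, and the contra samples 1, 2, 4 and 5 had 4.36, 5.13, 5.47 and 6.68 CPM. Every contra sample was above every intact one, and the log2 fold change of the edgeR quasi-likelihood fit was 1.05 ± 0.16 (SE). COL6A2 was at 1.22, 2.29 and 2.17 CPM in the intact and at 2.94, 3.69, 4.75 and 6.67 CPM in the contra samples, again without overlap, with a log2 fold change of 1.13 ± 0.22. LUM had 2.13, 4.48 and 3.14 CPM against 5.77, 6.11, 7.62 and 12.5 CPM, and PRELP 0.328, 0.586 and 0.772 CPM against 1.24, 0.936, 1.64 and 2.35 CPM. These too did not overlap, with log2 fold changes of 1.16 ± 0.26 and 1.37 ± 0.27.

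For 5 genes the groups overlapped, although COL1A1, COL1A2 and DCN were higher in contra in each of the 3 same-numbered pairs. COL3A1 and FBN1 were higher in 2 of the 3. COL1A1 was at 9.80, 19.2 and 38.8 CPM in intact samples 1, 2 and 4, and the contra values in the order 1, 2, 4 and 5 were 27.7, 98.5, 78.04 and 100.2 CPM. Contra sample 1 lay below intact sample 4, and the log2 fold change was 1.73 ± 0.42. COL1A2 had 12.5, 20.8 and 71.7 CPM against 32.4, 128, 125 and 158 CPM, and DCN 1.36, 2.57 and 4.64 CPM against 3.98, 7.76, 10.3 and 10.6 CPM, with the same sample of each group at the overlap. The log2 fold changes were 1.68 ± 0.55 and 1.47 ± 0.32. COL3A1 had 5.43, 7.96 and 6.91 CPM against 8.42, 6.89, 12.3 and 19.3 CPM, and FBN1 2.07, 4.17 and 5.72 CPM against 4.89, 3.93, 7.38 and 9.47 CPM. Contra sample 2 was within the intact range for both genes, and contra sample 1 was so for FBN1. The log2 fold change was 0.63 for each gene, with an SE of 0.27 for COL3A1 and 0.26 for FBN1.

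**Figure D3:**
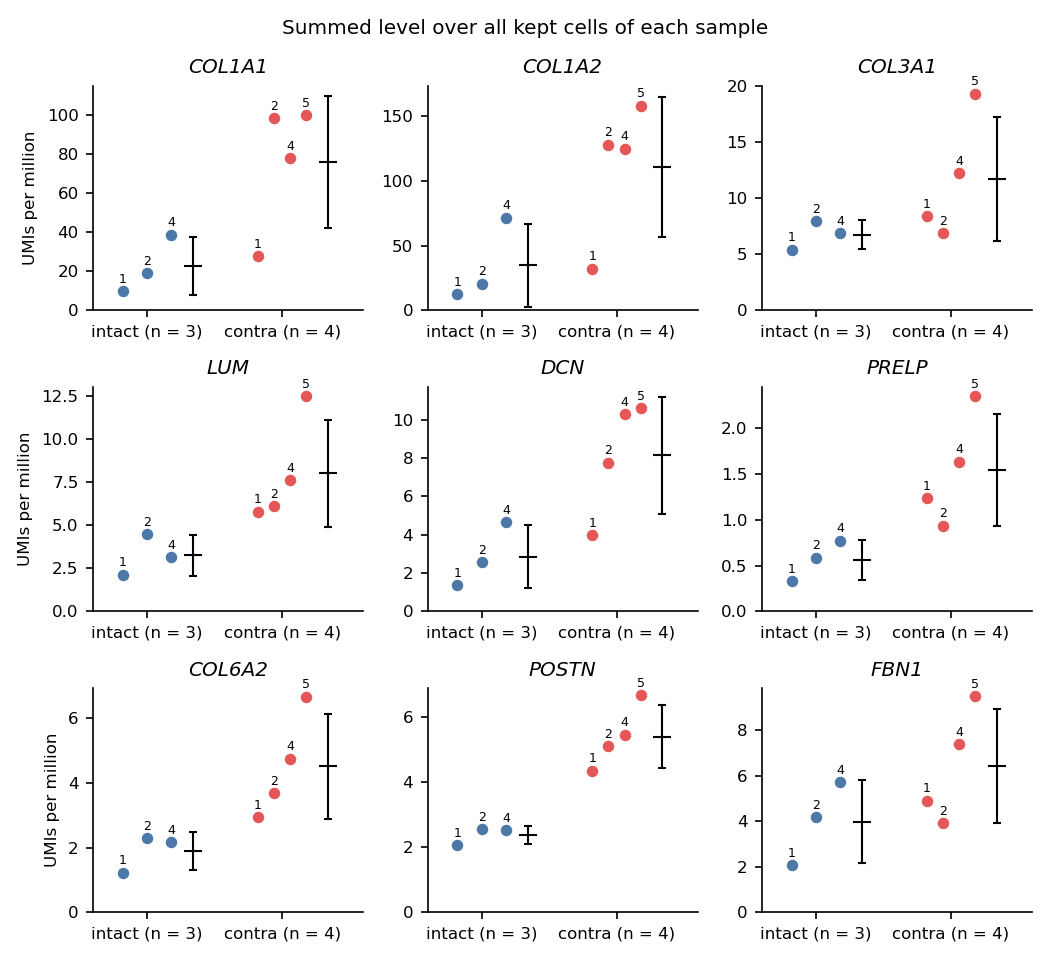
Summed level of each gene over all kept cells of a sample (CPM, linear axis from 0), with 1 numbered point per sample and the mean ± SD beside each group of 3 intact and 4 contra samples. POSTN, COL6A2, LUM and PRELP show no overlap between the groups, and contra sample 5 is the highest of all 7 samples for every gene.

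Groups without overlap and with contra higher made up 0.581% of the 32720 gene models tested, and 4 of the 9 genes were among them. The edgeR quasi-likelihood test called 0 of the 32720 models at a Benjamini-Hochberg adjusted p under 0.05 (background 0%), with 842 at an unadjusted p under 0.05. DESeq2 called 14 (0.0428%), among them POSTN, COL6A2 and PRELP. The rule that chose the genes used this contrast, so these counts are no evidence for them.

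Fibroblast-like cells were the more frequent in contra limbs in the mean. They numbered 8, 10 and 16 in intact samples 1, 2 and 4, or 0.159%, 0.207% and 0.363% of kept cells. In contra samples 1, 2, 4 and 5 they numbered 19, 19, 25 and 44, or 0.334%, 0.439%, 0.531% and 0.788%. The contra mean was 0.523% ± 0.194 (n = 4, SD) and the intact mean 0.243% ± 0.106 (n = 3, SD), with contra sample 1 below intact sample 4. The difference did not pass a two-sided exact permutation test (p = 0.0857, adjusted p = 0.229 over 4 shares tested, smallest possible p = 0.0286).

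Cells of the cluster with at least 6 of the 12 markers made up 0.119%, 0.145% and 0.204% of the intact and 0.282%, 0.369%, 0.340% and 0.645% of the contra samples, which did not overlap (exact permutation p = 0.0571, two-sided). COL6A1 and DPT, which are among these markers, were themselves higher in contra over all cells without overlap, so this share is not independent of the contrast. The fibroblast-like share was also above intact in contra in each of the 3 pairs of samples that share a number. With 3 pairs an exact sign-flip test cannot go below p = 0.25. Epidermal-like cells moved with the fibroblast-like share: they were 4.38%, 3.45% and 33.96% of the intact and 4.77%, 21.6%, 33.6% and 47.9% of the contra samples, and their part in the difference was not tested. That epidermal share did not pass the test either (p = 0.314, exact permutation).

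**Figure D4:**
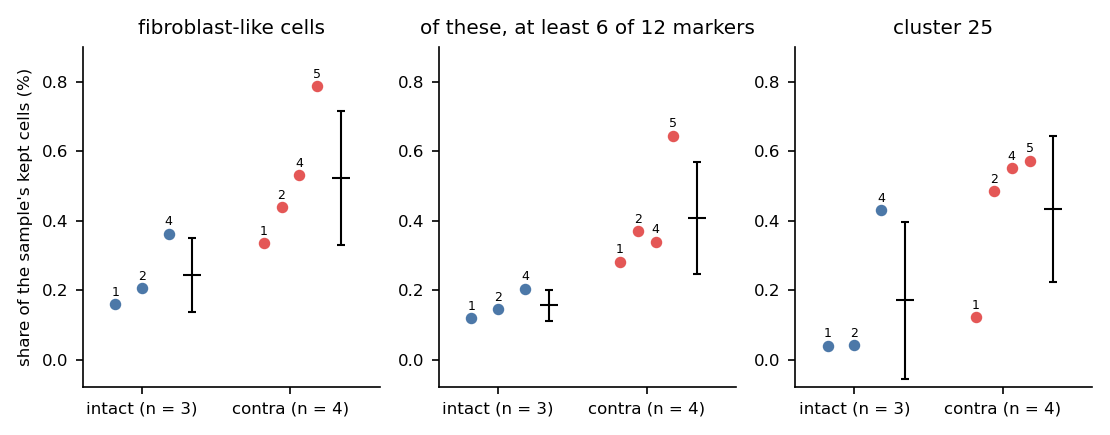
Share of each sample's kept cells (%) that were fibroblast-like (left), fibroblast-like with at least 6 of 12 markers (middle) or in cluster 25 (right). Points are samples with their number and bars the mean ± SD of 3 intact and 4 contra samples. The middle panel has no overlap between groups, with 0.204% the highest intact and 0.282% the lowest contra value.

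Per fibroblast-like cell the groups overlapped for all 9 genes. Of the 2999 gene models tested in these cells, 2.1% had CPM that did not overlap with contra higher, and 0.834% with contra lower. POSTN averaged 25.8, 15.6 and 4.63 UMIs per cell in intact samples 1, 2 and 4, where the contra values in the order 1, 2, 4 and 5 were 22.1, 15, 13.96 and 11.2. The group means were 15.3 ± 10.6 (n = 3, SD) and 15.6 ± 4.65 (n = 4, SD), and both ends of the range were intact samples. LUM averaged 19.4, 40.1 and 10.6 UMIs per cell against 28.4, 22.9, 24.7 and 23.05, and COL6A2 14.9, 23.7 and 5.63 against 14.7, 14.4, 13.4 and 11.4, again with intact samples at both ends.

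COL1A1 averaged 101, 121 and 49.4 UMIs per cell in the intact and 118, 229, 102 and 97.6 in the contra samples, where contra sample 2 was the highest. COL1A2 followed it with 105, 113 and 48.4 against 114, 214, 107 and 95.2. COL3A1 was lower in the contra mean, with 73.5, 97.1 and 28.4 against 46.6, 31.0, 40.3 and 38.4. FBN1 was so too, with 19.8, 39.1 and 20.1 against 24.3, 14, 22.3 and 15.98. DCN ranged from 8.56 to 21.2 and PRELP from 3.25 to 6.4 UMIs per cell in the intact samples, and from 12.6 to 19.5 and 4.00 to 6.53 in the contra samples.

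**Figure D5:**
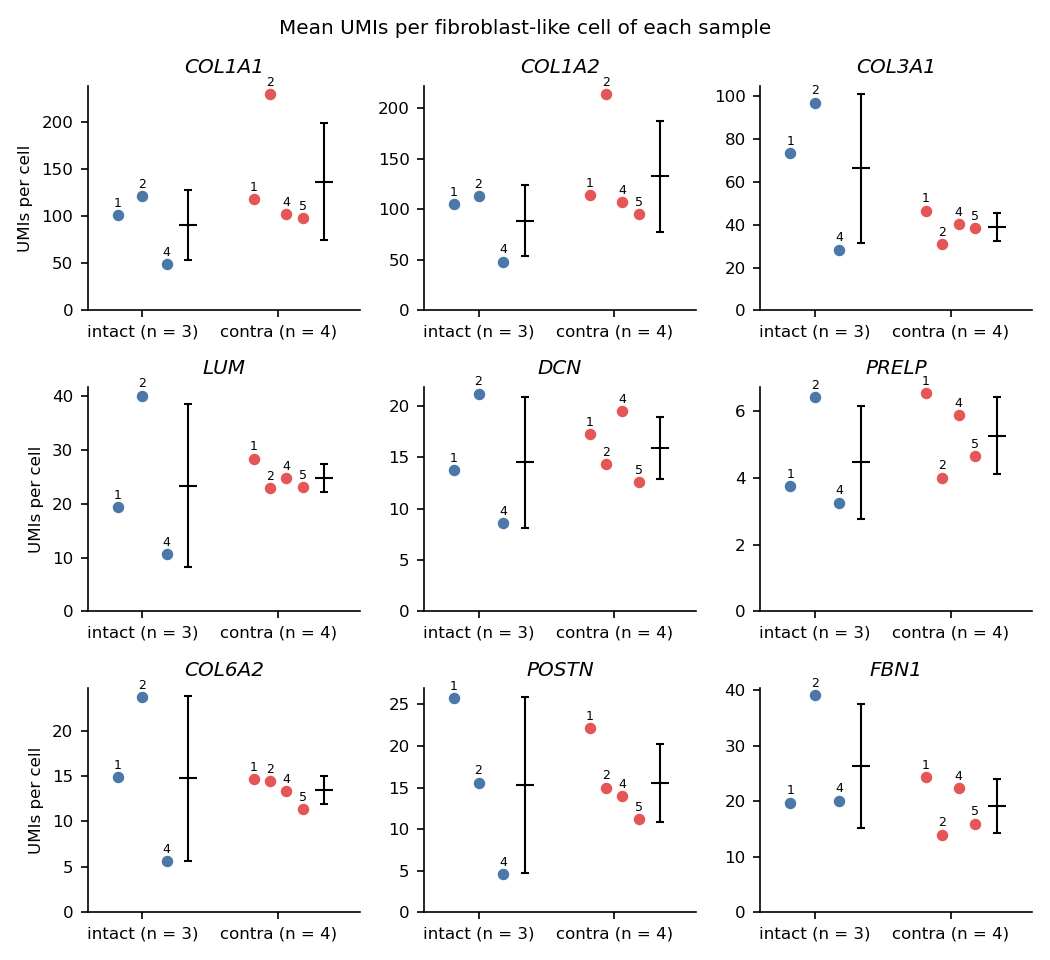
Mean UMIs of each gene per fibroblast-like cell (linear axis from 0), with 1 numbered point per sample and the mean ± SD beside each group of 3 intact and 4 contra samples. The groups overlap for every gene, and intact sample 4 is the lowest sample for 8 of the 9 genes.

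The product of cell number and level per cell could be taken apart on the log2 scale. The number of fibroblast-like cells per kept cell was higher in contra by 1.12 in log2 (ratio of geometric means). The level per cell added 0.60 for COL1A1, 0.60 for COL1A2, 0.30 for POSTN, 0.29 for LUM, 0.27 for PRELP, 0.21 for DCN and 0.09 for COL6A2. It took away from the number for COL3A1 (-0.60) and FBN1 (-0.42). The number term was a single value shared by the 9 genes, and it was larger in size than each level term. That is 1 comparison and not 9, and the difference in fibroblast-like share did not pass its test (exact permutation p = 0.0857). The genes were chosen by sums that include both terms, so no conclusion is drawn from the order of the terms. The level terms depended on intact sample 4, without which 3 of 9 were above 0 and their median went from 0.27 to -0.18. They also depended on the cells with few markers, which were 7 of the 16 in that sample. In cells with at least 6 markers 5 of 9 terms were above 0 and the median was 0.08, with COL1A1 at 0.39, POSTN at 0.12, LUM at 0.08, DCN at -0.0013 and COL6A2 at -0.10.

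In the edgeR quasi-likelihood fit of counts summed over fibroblast-like cells, 0 of 2999 models passed an adjusted p under 0.05 (background 0%), with 269 at an unadjusted p under 0.05 and 0 calls by DESeq2. Without the filter on low counts 124 of 28278 models (0.439%) were called, COL1A1 and COL1A2 among them. That fit was shifted as a whole: the median log2 fold change of its models was 0.36, with 60.9% above 0. In the filtered fit these values were -0.03 and 47.4%. The genes were chosen by this contrast in counts that include these cells, so the 2 calls are no evidence for them. The log2 fold changes of the members in the filtered fit lay between -0.61 ± 0.28 (COL3A1) and 0.73 ± 0.37 (COL1A1). LUM was at 0.30 ± 0.25 and POSTN at 0.11 ± 0.47.

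The place of the group difference was also counted in UMIs per 10000 kept cells. POSTN averaged 576 such UMIs in intact and 1103 in contra samples, and 86.3% of the difference lay in fibroblast-like cells. The share was 95.4% for LUM, 95.3% for PRELP, 90.3% for COL3A1 and 83.2% for COL6A2. For FBN1 it was 105.7%, since cells neither fibroblast-like nor epidermal-like differed the opposite way (-16.7%). The epidermal-like cells outside cluster 25 differed the same way for FBN1 (10.5%). For 3 genes less than this lay in fibroblast-like cells: 49.5% for DCN, 46.8% for COL1A1 and 32.3% for COL1A2. Cluster 25 held 43.7% of the difference of COL1A1, 37.6% of DCN, 25.5% of COL1A2 and 11.03% of POSTN. The other epidermal-like cells held 40.6% of the difference of COL1A2.

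Cluster 25 had 2, 2 and 19 cells in intact samples 1, 2 and 4, and contra samples 1, 2, 4 and 5 gave 7, 21, 26 and 32. It made up 0.433% ± 0.210 (n = 4, SD) of kept contra cells and 0.171% ± 0.225 (n = 3, SD) of kept intact cells, a difference that did not pass the exact permutation test (p = 0.171). Within it COL1A1 stood at 3220, 3803 and 4583 CPM in the intact and at 5332, 10055, 7325 and 7063 CPM in the contra samples. COL1A2 had 2868, 3343 and 3808 CPM against 4153, 8475, 6028 and 5803 CPM, and DCN 428, 412 and 330 CPM against 538, 845, 575 and 563 CPM. For these 3 genes every contra sample was above every intact one, as it was for 7.04% of the 2003 gene models with at least 100 UMIs in the cluster. The summed fibroblast markers of the cluster did not overlap either, at 1260 to 2007 CPM in the intact and 2081 to 4023 CPM in the contra samples, and their part in the result was not tested. Intact samples 1 and 2 rest on 2 cells each. POSTN did overlap there, from 25.2 to 218 CPM in the intact and from 95.5 to 301 CPM in the contra samples.

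In all epidermal-like cells together, a fit added after the data were seen, COL1A1 had a log2 fold change of 0.84 ± 0.34, COL1A2 of 0.87 ± 0.25 and DCN of 0.78 ± 0.33. The edgeR quasi-likelihood test called 0 of 21486 models there (background 0%), with 1959 at an unadjusted p under 0.05 and 87 calls by DESeq2 (0.405%). With the replicate number as a block, 214 models (0.996%) passed, 88 higher and 126 lower, and COL1A1, COL1A2 and DCN were among the higher ones. Without cluster 25 the blocked fit called 148 models (0.695%), and of the members COL1A2, at 0.71 ± 0.10, where COL1A1 was at -0.26 and DCN at 0.15. The members were chosen by this contrast in counts that include these cells. Their calls in the blocked fits are therefore no evidence for them. In all cells other than fibroblast-like, edgeR called 0 of 32752 models (background 0%; 786 at an unadjusted p under 0.05) and DESeq2 7 (0.0214%), none of them a member.

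Other genes of the matrix were read from 6 lists of collagens, basement membrane, proteoglycans, glycoproteins, collagen processing and receptors. Over all kept cells 162 of their gene models were tested and 0 passed the edgeR test, by DESeq2 also 0, with 18 at an unadjusted p under 0.05 by edgeR. That last count was 32 with the replicate block, 49 without intact sample 4 and 47 without contra sample 1. Over all models tested the share at an unadjusted p under 0.05 rose as well. It was 2.57% in the main edgeR fit and 6.28%, 11.5% and 10.9% in those 3 fits. With any other sample left out, the count of list models lay between 13 and 18. The median log2 fold change was 0.54 over 21 models of other collagens and 0.55 over 27 of the basement membrane, where that of all models was -0.02, and it was between 0.16 and 0.20 in the other 4 lists. Without contra sample 2 the medians of collagens and basement membrane were 0.32 and 0.36, and without intact sample 1 that of other collagens was 0.33. In fibroblast-like cells the median was 0.01 over 9 models of other collagens and -0.76 over 9 of the basement membrane, of which 0 were above 0. COL5A1, a chain of collagen V, averaged 7.53 ± 3.25 CPM (n = 4 contra samples, SD) against 3.44 ± 1.11 CPM (n = 3 intact samples, SD), and COL6A3, a partner of COL6A2 in collagen VI, 5.18 ± 2.08 and 2.19 ± 0.844 CPM. SPARC averaged 78.3 ± 45.4 and 27.5 ± 29.7 CPM. In 8 of the 162 models (4.94%) every contra sample was above every intact one, where 0.581% of all 32720 models tested were so. In 1 model, CD44, every contra sample was below (0.210 and 0.386 CPM), and the share of all models below is not given here. The 8 were COL6A1, the other partner of COL6A2 (3.21 and 1.36 CPM), DPT, MFAP5, OGN, BGN, FN1, NID2 and FBLN5, all named after their values were seen. COL6A1 and DPT are among the fibroblast markers, and the lists were chosen with earlier results of these data known. The count of 8 is therefore a description and no evidence for the lists. NID2 (0.868 and 0.531 CPM) and FBLN5 (0.467 and 0.349 CPM) were at low levels, as CD44 was. The groups overlapped for COL5A1, COL6A3, SPARC and the other 15 list models named by their UMI counts, such as the prolyl hydroxylase subunit P4HB (194 and 131 CPM), the syndecans SDC1 (59.8 and 31.7 CPM) and SDC4 (46.9 and 27.4 CPM), and the collagen receptor DDR1 (52.3 and 25.5 CPM).

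The lists differed in the cells where their models had the highest level, which need not be the cells that held most UMIs. Of the basement membrane models with at least 20 UMIs, 18 of 32 had their highest level in cluster 25 and 12 in fibroblast-like cells. In fibroblast-like cells 12 of 15 proteoglycan and 32 of 55 glycoprotein models were highest. The same counts over all gene models are not given here. PODN and LAMC1, both highest in fibroblast-like cells, had 0.939% and 1.12% of their UMIs there. VCAN, a large proteoglycan, was at 198 CPM in fibroblast-like cells, 158 CPM in macrophage-like cells and 2.00 CPM in cluster 25. Fibroblast-like cells held 27.6% of the VCAN UMIs. OMD, a small leucine-rich proteoglycan of bone in mammals, was at 23.6 CPM in fibroblast-like cells and had 0 UMIs in cluster 25. It stood at 5.42 CPM in erythroid-like cells, and fibroblast-like cells held 3.33% of its UMIs. The remaining ones were LAMC1, PLOD3, CRTAP, MFAP1, MFAP2, COL11A2 and PODN, with contra means from 3.56 to 65.4 CPM and intact means from 3.32 to 59.6 CPM. LAMA3 and LAMB3, chains of the laminin under epidermis, were at 343 and 210 CPM in cluster 25 and at 8.21 and 13.3 CPM in fibroblast-like cells. In the blocked edgeR fit of epidermal-like cells, 5 of 116 list models passed, where 0.996% of all models did. All 5 were higher in contra and included COL5A1 (log2 fold change 1.26), ITGB4 (1.00), MFAP2 (0.83) and 1 of the 3 LAMA3 models tested there (0.66). Without cluster 25 the call was lost for COL5A1, at -0.03, and for ITGB4, at -1.01, while MFAP2 (0.82) and that LAMA3 model (0.61) still passed. ITGB4, an integrin chain of hemidesmosomes, was named after its values were seen.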

How the data were processed

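The authors deposited 1 matrix of UMI counts (whole numbers, not normalized) over 61014 gene models and 35013 cells of 7 samples, and 0 sample names among the cells were left unused. Per the submitters' processing notes, kallisto 0.48.0 and Seurat 4.2.0 were used; what each did, and the genome build and annotation, is not stated there. Deposited cells held at least 3003 UMIs and 1000 genes, and at most 20.0% mitochondrial UMIs. The gene-model identifiers matched 0 identifiers of the RefSeq table, which was used by symbol for neighbours only.

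Doublets were called with Scrublet in scanpy 1.11.5 (score over 0.25) and 426 cells (1.22%) removed, which left 34587. Counts were scaled to 10000 per cell, and 1991 of 2000 variable genes were used, the 9 member models left out, with 30 principal components, 15 neighbours and Leiden resolution 1 (leidenalg 0.10.2). A cluster took a name when at least 60% of a cell type's measured markers, and at least 3, lay 1 log2 unit over the median cluster and were held by 10% of its cells, with 1 or more among its 10 leading genes. Members, lists, markers and tests were chosen with earlier results of these data known.

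Counts were summed per sample and tested with edgeR 4.0.16 (quasi-likelihood, TMM, filterByExpr, Benjamini-Hochberg over all models at 0.05) without a replicate block. DESeq2 1.42.0 was an alternative. Only the edgeR fit was run on simulated counts. Shares of cells were compared by exact permutation over samples (numpy 2.4.6). Members are given by the model with most UMIs. From each list the 3 models with most UMIs are named, and any that pass, except for results that are not reported here. Other alternatives were size factors, no filter, each sample left out, doublets kept, haemoglobin left out, resolutions 0.5 and 2, member genes kept in the clustering and fibroblast-like cells chosen by at least 4 markers. The labels do not say what a sample number marks. Deviations from group means of same-numbered samples correlated at 0.40 to 0.54 over all cells and at 0.19 to 0.36 in epidermal-like cells. In fibroblast-like cells they correlated at -0.13 to 0.40. The numbers were read as pairs in all but fibroblast-like cells. Over all cells, however, intact sample 4 correlated at 0.49 with contra sample 4 and at 0.56 with a contra sample of another number. For numbers 1 and 2 over all cells, and for each number in epidermal-like cells, the same-numbered sample correlated the most.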

Additional observations from a re-analysis of the deposited data

Results flagged for a closer look

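In fibroblast-like cells, contra sample 2 stood apart from the other 3 contra samples for the collagen I chains, with 229 COL1A1 UMIs per cell and 214 COL1A2 UMIs per cell. Its gap to the next sample exceeded the 95% critical value of Dixon's ratio for 4 samples for both genes, which share the same 19 cells. Of 22 such groups of 4 samples looked at, about 1 in 20 is marked by chance. Without contra sample 2 the log2 ratio of the level per fibroblast-like cell went from 0.60 to 0.32 for COL1A1 and from 0.60 to 0.34 for COL1A2. The cause was not tested.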

How the results depend on the processing

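Over all kept cells all 9 members had a log2 fold change above 0 under every alternative run there, with a lowest value of 0.40 and a highest of 2.42. Counts of calls moved from 0 with the tool: DESeq2 called 14 models over all kept cells, 7 outside fibroblast-like cells and 87 in epidermal-like cells. In fibroblast-like cells, 124 models were called without a filter, 1 at resolution 2 and 3 with cells chosen by markers. In epidermal-like cells, 429 were called without a filter. The edgeR counts stayed at 0 when any sample was left out. The cause of these moves was not tested.

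With the replicate block, 0 models were called over all kept cells, 0 in fibroblast-like cells, where the numbers did not pair, and 0 in all other cells. In epidermal-like cells the block gave 214 calls, and 148 without cluster 25, a choice made after the data were seen. The block changed no other call. The paired difference in the fibroblast-like share was 0.192 percentage points (exact sign-flip p = 0.25, the smallest possible with 3 pairs).

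The difference in the fibroblast-like share kept its direction under all 15 alternatives. It passed the test in none, with exact permutation or sign-flip p from 0.0571 to 0.267. The runs without 1 sample and the sign-flip test had too few splits for any p under 0.05. They could not pass whatever the values, so their not passing carries no information. The median share of a member's UMIs in fibroblast-like cells lay between 70.4% and 76.9%, the upper end with cells chosen by at least 4 markers. That choice gave 366 cells, of which 113 were in the fibroblast-like cluster, 65 in cluster 25 and the rest in other clusters. The median log2 ratio of the level per cell lay between -0.18, without intact sample 4, and 0.55, without intact sample 2. The level per cell rests on 8 to 44 fibroblast-like cells per sample.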
